A study of Mus musculus with 2 samples.

Results

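Endothelial cells that carry transcripts of major histocompatibility complex (MHC) class II genes are described here among non-muscle cells of mouse hearts, measured by droplet single-cell RNA sequencing. A barcode, the tag of 1 droplet and in most cases of 1 cell, was taken as endothelial when its summed unique molecular identifiers (UMIs, molecules counted once each) of Pecam1, Cdh5, Egfl7 and Cldn5 reached 4 and exceeded those of the fibroblast genes Pdgfra, Dcn, Col1a1 and Col3a1. It also had at least 500 genes, at most 10% mitochondrial UMIs, no UMI of the leukocyte gene Ptprc and fewer than 3 UMIs of the smooth muscle gene Myh11. An endothelial barcode with UMIs of at least 2 of the 4 genes Cd74, H2-Ab1, H2-Aa and H2-Eb1 is called a class II barcode. There were 362 of them among the 10427 barcodes of both libraries, 20 in the db/db and salt library and 342 in the db/+ library, next to 2712 and 2934 other endothelial barcodes.

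The db/db mice carry the mutation of the leptin receptor gene Lepr on both copies and were given 1% salt, a combination that the series uses to model heart failure in which the ejection fraction is preserved, and the db/+ mice carry 1 mutated copy and were the controls. Both groups came from 4 male hearts per genotype, freed of cardiomyocytes by filtration and of CD45-positive leukocytes by magnetic beads, and each was measured as 1 library. The labels state neither whether hearts were pooled nor the age of the mice, and genotype and salt cannot be told apart. After filtering, 4144 barcodes with a median of 7889 UMIs remained in the db/db and salt library and 4948 with a median of 7126.5 in the db/+ library, and the libraries shared 7 barcode sequences, none of them a class II barcode. Each group being 1 library, differences between groups carry no test. Every interval of a level or share below is an exact 95% interval, Poisson for levels and Clopper-Pearson for shares, that covers counting error only. Bounds of a log2 ratio set the lower end of 1 level's interval against the upper end of the other's. Bounds of a list are medians of its genes' bounds, and neither kind is an exact interval.

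MHC class II molecules are pairs of an alpha and a beta chain (H2-Aa with H2-Ab1, and H2-Ea with H2-Eb1) that show peptides from endosomes to CD4-positive T cells. Cd74, the invariant chain, holds the new pair on its way to the endosome, and the H2-DM pair (H2-DMa with H2-DMb1 or H2-DMb2) exchanges its last fragment for a peptide. Transcription of these genes depends on the coactivator Ciita, which interferon-gamma induces in many cells that are not professional antigen-presenting cells, and Ciita acts through factors bound to a set of short promoter elements known as the X, X2 and Y boxes.

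Those elements can be read in the promoters of some class II genes. The window from 250 bases before to 50 bases after the start site was taken from RefSeq (GRCm38.p6) for 8 of 11 genes of the class II pathway, and H2-Ab1, Ciita and Cd74 had no entry. The promoters of 1 alpha chain, 1 beta chain and 1 H2-DM chain are shown, since these genes mark or follow the class II barcodes. Capitals mark the Y box (TGATTGG, read on both strands), the X box (AGNNAC followed at once by NGATG, on both strands) and the X2 element (TGACGTCA, its own reverse complement), which do not overlap here.
H2-Aa, chr17:34287774-34288073, minus strand: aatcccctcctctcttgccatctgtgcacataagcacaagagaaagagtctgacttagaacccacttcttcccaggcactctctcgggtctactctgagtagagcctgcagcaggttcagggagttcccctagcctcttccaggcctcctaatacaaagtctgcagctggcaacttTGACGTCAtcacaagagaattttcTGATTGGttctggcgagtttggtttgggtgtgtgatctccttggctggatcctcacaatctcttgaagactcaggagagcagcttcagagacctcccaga
H2-Eb1, chr17:34305617-34305916, plus strand: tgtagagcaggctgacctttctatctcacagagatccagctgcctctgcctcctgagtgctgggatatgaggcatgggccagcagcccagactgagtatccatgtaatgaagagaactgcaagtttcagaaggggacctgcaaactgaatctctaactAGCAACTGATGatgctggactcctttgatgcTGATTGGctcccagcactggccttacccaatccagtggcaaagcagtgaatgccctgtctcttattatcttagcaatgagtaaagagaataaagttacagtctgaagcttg
H2-DMb1, chr17:34152941-34153240, plus strand: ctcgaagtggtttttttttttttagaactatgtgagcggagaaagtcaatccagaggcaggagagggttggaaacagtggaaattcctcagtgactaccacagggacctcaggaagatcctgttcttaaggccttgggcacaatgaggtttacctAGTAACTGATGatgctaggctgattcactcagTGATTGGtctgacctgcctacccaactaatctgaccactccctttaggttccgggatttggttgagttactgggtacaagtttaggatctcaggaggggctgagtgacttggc
In H2-Eb1 the X box began 92 bases and the Y box 61 bases before the start site, and in H2-DMb1 they began 95 and 63 bases before it. In H2-Aa the Y box began 50 and an X2 element 74 bases before the start, with no letter-perfect X box. Of the promoters not shown, those of H2-Oa and H2-Eb2 held both an X and a Y box. Those of H2-DMb2 and H2-Ob held a Y box but no X box, and neither window of H2-DMa held any of the elements. Both H2-DMa windows (from base 34122582 and 34125268) lay inside the annotated gene span, which starts at 34119541. The H2-DMb2 window (from 34144999) likewise lay inside a span that starts at 34143307. The sequence at these outer starts was not read. Of all 32851 promoter windows of this length, 7.82% held the Y box, 0.968% the X box, 1.79% the X2 element and 0.0548% both the X and the Y box. These matches are letters in a window and describe no binding.

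Class II barcodes made up 20 of 2732 endothelial barcodes of db/db and salt (0.732%, 0.448 to 1.13) and 342 of 3276 of db/+ (10.4%, 9.41 to 11.5). Fibroblast barcodes, held to the same rule, gave 8 of 1207 in the db/db and salt library (0.663%, 0.287 to 1.30) and 26 of 1382 in the db/+ library (1.88%, 1.23 to 2.75). Fibroblast barcodes were deeper, with a median of 11968 and 9621 UMIs, against 5685.5 and 5625 in endothelial barcodes. With every barcode thinned to 2000 UMIs, the endothelial share was 11 of 2563 (0.429%) in db/db and salt and 210 of 2971 (7.07%) in db/+, and the fibroblast share 4 of 1190 (0.336%) and 12 of 1345 (0.892%). Thinning left out 169 and 305 endothelial and 17 and 37 fibroblast barcodes. The share in db/+ endothelial barcodes lay above that of fibroblast barcodes at both depths, beyond counting error. In db/db and salt the intervals of both shares overlapped at both depths (0.214 to 0.767 in endothelial and 0.0917 to 0.858 in fibroblast barcodes after thinning), so a difference from fibroblast barcodes was not detectable, and the 20 barcodes are described apart. The fibroblast barcodes that met the rule held a median of 6 class II UMIs in db/db and salt and of 13.5 in db/+, where 13 of the 26 had UMIs of all 4 genes. Whether these UMIs came from free RNA, from doublets or from the fibroblasts themselves was not tested.

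The number of class II genes found, which the rule used, is given as a description. In db/db and salt, 30, 9, 5 and 6 endothelial barcodes had UMIs of 1, 2, 3 and 4 of the genes, and in db/+ the numbers were 197, 80, 86 and 176. Barcodes with all 4 genes made up 6 of 2732 (0.220%) in db/db and salt and 176 of 3276 (5.37%) in db/+. Just inside the threshold, db/+ barcodes with 2 genes had a median of 3 class II UMIs (467 CPM, that is UMIs per 1000000), and just outside it those with 1 gene had a median of 1 (170 CPM).

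**Figure D1:**
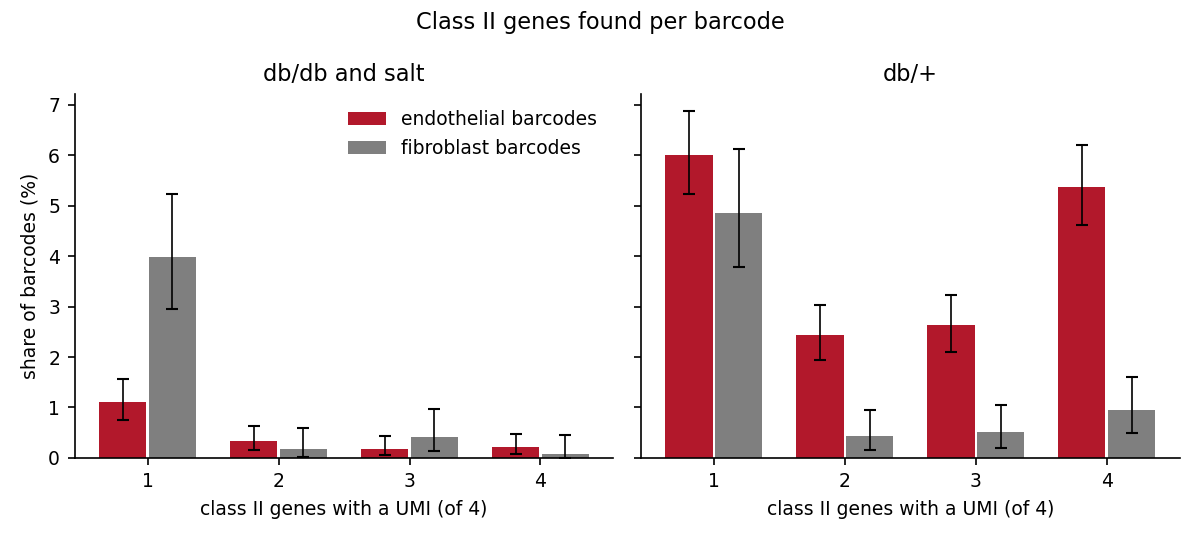
Share of endothelial and fibroblast barcodes (vertical axis, %) with UMIs of 1, 2, 3 or 4 of the class II genes (horizontal axis) in each library; bars are shares and lines exact 95% intervals. In db/+ 5.37% of endothelial and 0.941% of fibroblast barcodes had all 4 genes, and in db/db and salt 0.220% and 0.0828%.

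The barcodes were chosen by UMIs of these 4 genes, of the endothelial and fibroblast genes, of Ptprc and of Myh11, so the levels of these genes are a description. Class II barcodes held a median of 4.5 class II UMIs (2 to 22) in db/db and salt and of 14 (2 to 313, quartiles 5 and 35) in db/+. Cd74 was found in 13 of 20 class II barcodes of db/db and salt (65.0%) and in 290 of 342 of db/+ (84.8%). H2-Ab1 was found in 16 of 20 (80.0%) and 313 of 342 (91.5%), H2-Aa in 16 of 20 and 294 of 342 (86.0%), and H2-Eb1 in 12 of 20 (60.0%) and 225 of 342 (65.8%). The levels in db/+ class II barcodes were 1239 CPM of Cd74, 494 of H2-Ab1, 414 of H2-Aa and 282 of H2-Eb1, and other endothelial barcodes, which could have UMIs of at most 1 of the genes, had 3.37, 4.59, 2.38 and 1.03 CPM.

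Endothelial genes outside the rule were close to level as a list. The list of 12 such genes, among them Tie1, Tek and Erg, had a median log2 ratio of class II over other endothelial barcodes of 0.03 in db/+ and of -0.05 in db/db and salt. Its summed level was 10052 against 10385 CPM in db/+. The largest ratio of the list in db/+ was that of Kdr, at -0.69, and in db/db and salt 1 of the 12 genes was at least 2-fold lower. Here and below 10 CPM were added to both levels before the log2 ratio was taken, so ratios of low genes come out too small. The summed level of 6 leukocyte genes (Laptm5, Coro1a, Cd52, Tyrobp, Fcer1g and Cd53) was 1.29 CPM in class II and 2.34 CPM in other endothelial barcodes of db/+. That of 8 macrophage genes was 2.84 against 2.97, of 6 B cell genes 0.258 against 0.450, of 6 T or NK cell genes 0.517 against 0.944 and of 4 monocyte or neutrophil genes 1.55 against 1.03 CPM. C1qa, Flt3, Itgax, Cd209a and Tyrobp had no UMI among the 3872056 of the db/+ class II barcodes, which at 3 UMIs as the limit of a count of 0 allows 0.775 CPM. The 8 dendritic cell genes summed to 71.3 against 71.6 CPM, nearly all of it Zbtb46 (70.3 against 70.2 CPM), which endothelial cells are known to express. In db/db and salt the 20 barcodes had 15.7 CPM of the leukocyte genes against 4.14 in other endothelial barcodes. They had 15.7 against 0.523 CPM of the B cell genes and 31.4 against 81.6 CPM of the dendritic cell genes. They had none of the other 3 lists, against 6.75 CPM of the macrophage, 0.476 of the T or NK cell and 0.999 of the monocyte or neutrophil genes. The total of the 20 barcodes was 190809 UMIs, of which 3 amount to 15.7 CPM. At least 1 marker of these lists other than Zbtb46 was found in 3 of 20 class II (15.0%) and 109 of 2712 other endothelial barcodes (4.02%) of db/db and salt, and in 22 of 342 (6.43%) and 119 of 2934 (4.06%) of db/+. A doublet caller, Scrublet, marked no class II barcode in either library. It marked only 1 of 2712 other endothelial barcodes of db/db and salt (0.0369%) and 1 of 2934 of db/+ (0.0341%), so its calls do not set class II barcodes apart. Barcodes with Ptprc UMIs were left out by the rule, so low leukocyte levels are partly bound to that choice. Class II barcodes were deeper than other endothelial ones, with a median of 9054.5 against 5660.5 UMIs in db/db and salt and 8979 against 5349.5 in db/+, and the part of depth in the rule's choice was not tested beyond the thinning above.

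Of the genes of the class II pathway that the rule did not use, the H2-DM chains and Ciita were higher in class II barcodes. H2-DMa was at 66.6 CPM (58.7 to 75.3) in class II and 1.57 CPM (1.10 to 2.19) in other endothelial barcodes of db/+, and H2-DMb1 at 72.6 (64.3 to 81.6) against 0.58 CPM. The paralog H2-DMb2, whose reads cannot be fully told from those of H2-DMb1, was at 5.42 against 0.09 CPM. Ciita was at 21.4 CPM (17.1 to 26.6) against 0.58 CPM, from 83 and 13 UMIs. With every barcode thinned to 2000 UMIs, H2-DMa was found in 43 of 325 class II barcodes (13.2%), 6 of 2646 other endothelial barcodes (0.227%) and 4 of 1345 fibroblast barcodes (0.297%) of db/+, and Ciita in 12 of 325 (3.69%), 5 of 2646 (0.189%) and 1 of 1345 (0.0743%). At full depth H2-DMa was found in 37.7% and Ciita in 18.1% of the 342.

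Within the pathway list, 13 of 21 genes reached a mean of 10 CPM in db/+, 3 of them at least 2-fold higher in class II barcodes (H2-DMb1, H2-DMa and Ciita) and none at least 2-fold lower, and the list's median log2 ratio was 0.05. Over all 8327 genes measured in this comparison, 78 (0.937%) were at least 2-fold higher and 16 (0.192%) at least 2-fold lower, with a median of 0.01. None of the measured factors that bind the X, X2 and Y boxes was 2-fold apart, and some of them are given here. Rfxap was at 49.8 against 65.7 CPM, Nfyb at 52.9 against 51.0 and Creb1 at 74.4 against 82.2 CPM, and Rfx5, just under the mean of 10 CPM, at 10.3 against 6.97 CPM. Among the proteases that cut Cd74, Ctsd was at 355 against 204 CPM and Ctsl at 333 against 495 CPM. Ctss, which performs that step in professional antigen-presenting cells, had 1 UMI in all class II barcodes of db/+ (0.26 CPM). H2-Oa, a chain of the H2-DO pair that restrains H2-DM in B cells, had none, and H2-Ob was at 0.77 against 0.67 CPM.

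**Figure D2:**
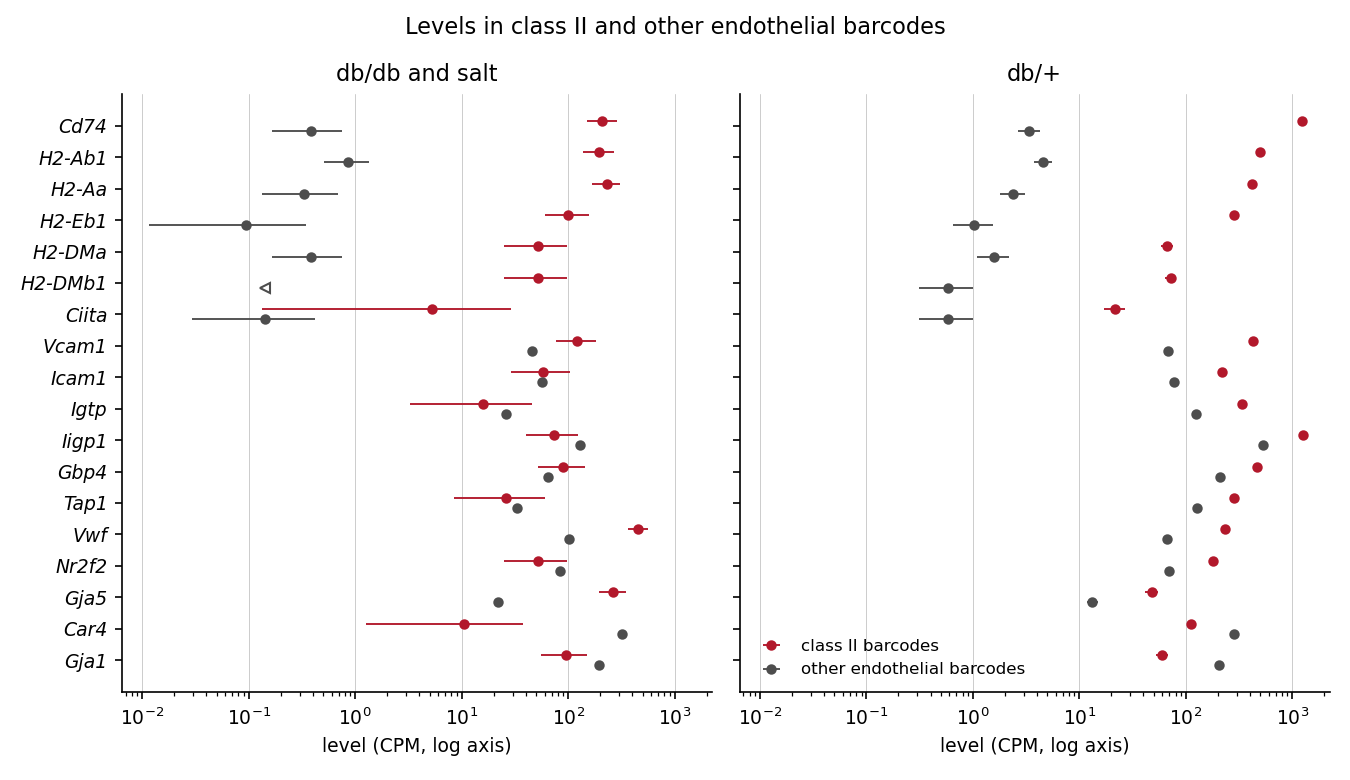
Level of 18 genes (horizontal log axis, CPM) in class II barcodes (red) and other endothelial barcodes (grey) of each library; lines are exact 95% Poisson intervals and an open triangle is the level of 3 UMIs, for a gene with no UMI. The first 4 genes chose the class II barcodes; in db/+ H2-DMa, H2-DMb1, Ciita, Vcam1 and Igtp lay to the right of other endothelial barcodes, and Car4 and Gja1 to the left.

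Costimulatory genes were closer to level. Of 18 such genes 9 were measured, none differed 2-fold and the median log2 ratio was 0.18 (0.937% and 0.192% of all genes did). Cd80 and Cd86, the classical ligands of Cd28, had no UMI in the 342 class II barcodes of db/+. The ligand of Icos, Icosl, was at 17.6 CPM (13.6 to 22.3) in class II against 4.50 CPM in other endothelial barcodes, Cd40 at 28.2 against 16.96, and the death ligand Tnfsf10 at 298 against 175 CPM. Cd274, which encodes the checkpoint ligand PD-L1, was at 133 CPM (122 to 145) against 80.6 CPM and was found in 19.1% of class II and 14.4% of other endothelial barcodes at 2000 UMIs, with intervals of 14.95 to 23.8 and 13.05 to 15.8 that overlapped.

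Genes of class I presentation, the route that shows cytosolic peptides to CD8-positive T cells, were higher as a list. All 22 were measured, 4 were at least 2-fold higher (0.937% of all genes were) and none 2-fold lower (0.192%). The median log2 ratio was 0.79. The 4 were H2-Q7 (681 against 307 CPM; its reads may be shared with H2-Q6), H2-T23 (739 against 344), the peptide transporter Tap1 (283 against 127) and the immunoproteasome subunit Psmb9 (601 against 290 CPM). B2m, the light chain, was at 4724 against 3054 CPM. Nlrc5, the class I counterpart of Ciita, was at 29.7 CPM (24.5 to 35.7) against 17.2 CPM.

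The interferon-gamma list differed more. Of 25 genes 23 were measured. At least 2-fold higher were 12 (0.937% of all genes were) and none was 2-fold lower (0.192%). The median log2 ratio was 1.01. The immunity-related GTPases Iigp1, Igtp and Irgm2, which act on vacuoles of intracellular microbes, were at 1258 against 525, 338 against 124 and 187 against 74.4 CPM. Serpina3g, a protease inhibitor, was at 45.2 against 7.74 CPM, and Cxcl10, a T cell chemokine, at 89.6 against 36.9 CPM. At 2000 UMIs, Igtp was found in 149 of 325 class II barcodes (45.8%, 40.3 to 51.4), 446 of 2646 other endothelial barcodes (16.9%) and 56 of 1345 fibroblast barcodes (4.16%) of db/+. The type I interferon list, genes such as Ifit3 and Isg15 that mainly answer interferon-alpha and -beta, had 19 genes measured, none of them 2-fold apart, and a median of 0.29. Ifit3 was at 171 against 111 and Isg15 at 283 against 220 CPM. Of 13 receptor and signalling genes none was 2-fold apart and the median was 0.06, and the receptor chain Ifngr1 was at 316 CPM (298 to 334) in class II and 302 CPM (295 to 309) in other endothelial barcodes.

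Of the leukocyte adhesion genes Vcam1, Icam1 and Cxcl16 were higher. Vcam1, the endothelial ligand of the integrin VLA-4, was at 428 CPM (408 to 449) in class II and 68.5 CPM (65.1 to 72.1) in other endothelial barcodes of db/+. In the db/db and salt library its levels were 121 CPM (76.4 to 181) and 45.6 CPM. At 2000 UMIs it was found in 38.2% of class II and 7.79% of other endothelial barcodes of db/+, and in 15.8% (3.38 to 39.6) and 5.39% in db/db and salt. Fibroblasts express Vcam1 too (28.6% of them in db/+), so that share is no measure of background. Icam1, the ligand of LFA-1, was at 220 against 78.1 CPM and the chemokine Cxcl16 at 188 against 71.1 CPM in db/+. These 3 of the 11 genes measured were at least 2-fold higher (0.937% of all genes were) and none was 2-fold lower (0.192%). The list median was 0.58. That median was 0.22 over genes with a mean of at least 50 CPM and 0.93 with barcodes chosen at 2000 UMIs. Selectins were rare, with Selp at 12.9 against 1.48 and Sele at 5.17 against 1.53 CPM.

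Among all genes outside the rule, the 10 with the highest ratios in db/+ held H2-DMb1 (log2 ratio 2.96), H2-DMa (2.73), Vcam1 (2.48), Ms4a4d (2.06), Cyp26b1 (1.99), Clu (1.89), Prss23 (1.79), Emp3 (1.78), Ltc4s (1.73) and Cd55 (1.69). Cyp26b1, an enzyme that clears retinoic acid, was at 126 CPM (115 to 137) in class II against 24.1 CPM in other endothelial barcodes of db/+. Ltc4s, which makes the leukotriene C4, was at 78.5 against 16.6 CPM, Clu, a secreted chaperone, at 133 against 28.6, and Cd55, an inhibitor of complement on the cell surface, at 98.9 against 23.7 CPM. The 10 lowest were Gja1 (-1.63), Car4 (-1.27), Sept4 (-1.17), Myo10 (-1.11), Cdkn1c (-1.09), Unc5b (-1.09), Ddit4 (-1.08), Hlx (-1.07), Btnl9 (-1.04) and Adm (-1.03). Gja1, a gap junction protein, was at 59.7 CPM (52.2 to 67.9) in class II against 205 CPM in other endothelial barcodes. Car4, a carbonic anhydrase of capillaries, was at 113 (103 to 124) against 286 CPM, and Unc5b, a guidance receptor of sprouting vessels, at 59.7 against 138 CPM.

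Markers of the vessel beds differed as well. Of 8 venous markers 5 were measured in db/+, 3 were at least 2-fold higher (0.937% of all genes were) and the median log2 ratio was 1.26. Vwf, the clotting protein of larger vessels, was at 232 CPM (217 to 248) in class II against 66.4 CPM, Nr2f2, the transcription factor of venous identity, at 180 against 69.3, and Plvap, a protein of fenestral diaphragms, at 39.8 against 9.17 CPM. The 10 arterial markers had a median of 0.76 (0.0029 among the venous-marked barcodes described below), with Gja5 at 47.8 against 13.3 and Fbln5 at 123 against 53.3 CPM at least 2-fold higher, while Dll4 (62.5 against 101) and Efnb2 (128 against 205 CPM) were lower. Among venous-marked barcodes, which these genes mark, the venous median was 0.38. The 10 capillary markers had a median of -0.47, 1 of them, Car4, 2-fold lower, and Rgcc was at 574 against 1032 CPM. The 7 angiogenic markers had a median of -0.81, and Adm (30.2 against 72.2) and Esm1 (5.42 against 26.6 CPM) were 2-fold lower. The 8 proliferation genes had a median of 0.51, which was -0.05 with barcodes chosen at 2000 UMIs and -0.03 among venous-marked barcodes.

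Barcodes were then marked by bed at 2000 UMIs, venous with UMIs of at least 2 of the 8 venous genes and arterial with at least 3 of the 10 arterial genes. Of 325 class II barcodes of db/+ 86 were venous-marked (26.5%, 21.7 to 31.6), against 195 of 2646 other endothelial barcodes (7.37%, 6.40 to 8.43). Arterial marks were found on 70 (21.5%, 17.2 to 26.4) against 486 (18.4%, 16.9 to 19.9), and marks of at least 2 of 7 angiogenic genes on 11 (3.38%) against 372 (14.1%). Marks of at least 3 of 10 capillary genes were found on 92% of class II and 98.1% of other endothelial barcodes, so most class II barcodes also carried capillary genes.

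Within each bed the class II barcodes were compared with the others of that bed, leaving out barcodes with both marks. In db/+ and at 2000 UMIs, Nr2f2 was at 494 CPM in the 81 venous-marked class II barcodes and at 485 CPM in the 172 others. It was at 15.4 CPM in the 65 arterial-marked class II barcodes against 15.1 CPM in 463 others, and at 77.6 against 31.7 CPM in barcodes with neither mark. Vwf was at 1062 against 733 CPM in venous-marked, 154 against 36.7 in arterial-marked and 51.7 against 19.6 CPM in unmarked barcodes. Both are themselves marking genes, and the part of Vwf in the venous marks was not tested. Vcam1 was at 1099 CPM in venous-marked class II barcodes against 192 CPM in other venous-marked ones, at 262 against 49.7 CPM in arterial-marked ones and at 328 against 52.8 CPM in the 174 and 1988 barcodes with neither mark. Cyp26b1 was at 228 against 49.4 CPM in venous-marked and at 91.95 against 22.9 CPM in unmarked barcodes, and had no UMI in arterial-marked class II barcodes. The interferon-gamma list summed to 6617 against 2203 CPM in venous-marked, 4169 against 2629 in arterial-marked and 7230 against 3208 CPM in unmarked barcodes, so it was higher in class II barcodes of each bed.

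Endothelial barcodes of db/+ were also set in order of the class II genes found, from 0 to 4, with levels taken at 2000 UMIs from 2463, 183, 73, 80 and 172 barcodes. The interferon-gamma list summed to 2927, 4363, 5630, 6113 and 6945 CPM and thus stood higher at each step. The venous markers summed to 330, 552, 596, 750 and 1038 CPM. Vcam1 was at 51.8, 183, 288, 319 and 701 CPM and Igtp at 123, 156, 301, 300 and 422 CPM. H2-DMa was at 0.41, 10.9, 41.1, 25 and 128 CPM, from 2, 4, 6, 4 and 44 UMIs, and Ciita was found with 3, 2, 1, 2 and 10 UMIs, which are too few to order. The type I interferon list ran from 3009 CPM with no class II gene over 3642, 3548 and 4038 to 3779 CPM with all 4. The capillary markers summed to 32852, 28967, 28664, 24219 and 25753 CPM. Median full depth was 5831, 7802, 7078, 7279 and 10863 UMIs across the same steps, and its part in these differences was not tested beyond the thinning.

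**Figure D3:**
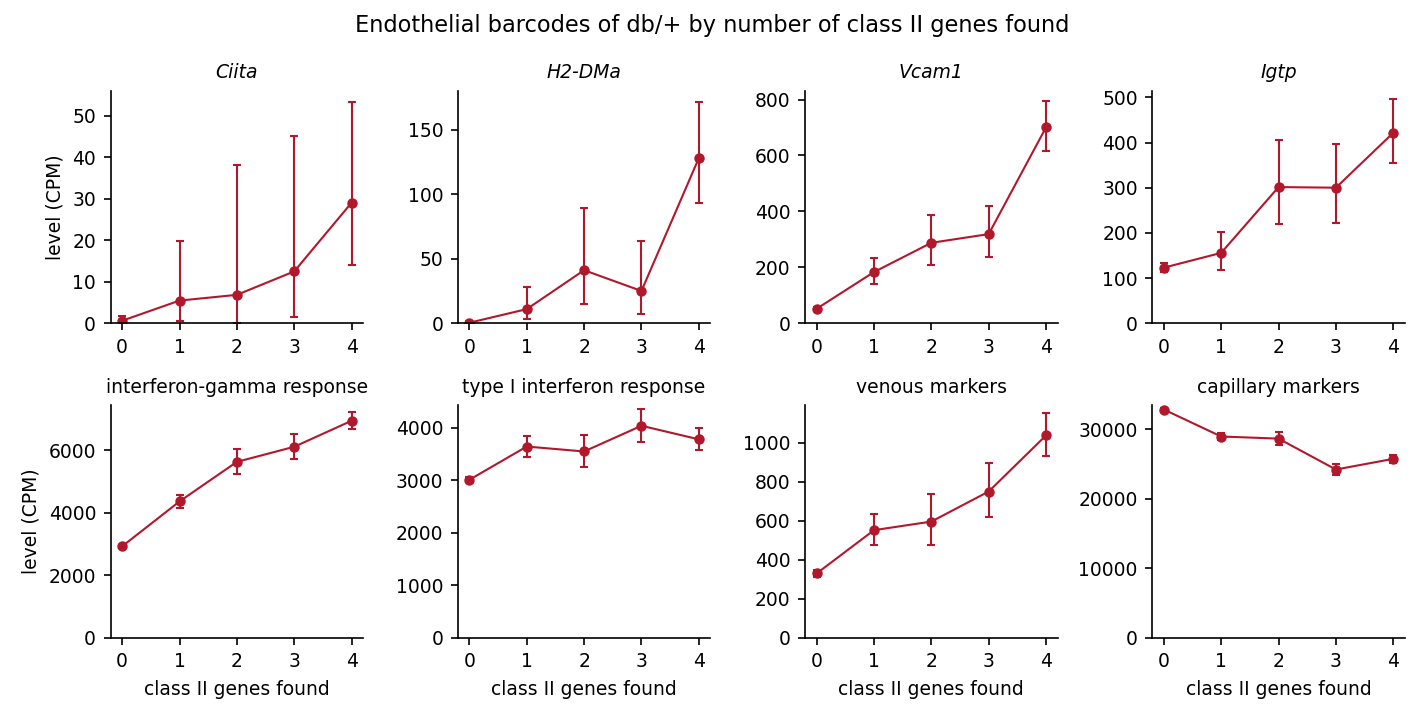
Levels (vertical axis, CPM) at 2000 UMIs in endothelial barcodes of db/+ with UMIs of 0 to 4 class II genes (horizontal axis); points are summed levels, lines between them guide the eye, and bars are exact 95% Poisson intervals. The interferon-gamma list stood at 2927 CPM with no class II gene and 6945 CPM with 4, and the type I interferon list at 3009 and 3779 CPM.

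Venous and interferon-gamma marks together gave the highest class II shares. A barcode was given the interferon-gamma mark when at least 2 of Iigp1, Igtp, Gbp4, Gbp2 and Cxcl9 had UMIs at 2000 UMIs, which held for 1 of 19 class II (5.26%) and 310 of 2544 other endothelial barcodes (12.2%) of db/db and salt, and for 256 of 325 (78.8%) and 1040 of 2646 (39.3%) of db/+. Of venous-marked barcodes of db/+, 66 of 121 with the interferon-gamma mark (54.5%, 45.2 to 63.6) and 15 of 132 without it (11.4%, 6.50 to 18.0) were class II barcodes. Of arterial-marked ones, 39 of 206 (18.9%, 13.8 to 24.96) with and 26 of 322 (8.07%, 5.34 to 11.6) without it were. Of barcodes with neither bed mark, 147 of 960 (15.3%, 13.1 to 17.7) with and 27 of 1202 (2.25%, 1.49 to 3.25) without it were. In each of these 3 settings the share was higher with the interferon-gamma mark, beyond counting error. The marks were set at 2000 UMIs, but class II barcodes were called at full depth. Median full depth with and without the mark was 8483 and 6979.5 UMIs in venous-marked, 6019.5 and 5412.5 in arterial-marked and 6917.5 and 5770 in unmarked barcodes. The part of depth in these shares was not tested.

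**Figure D4:**
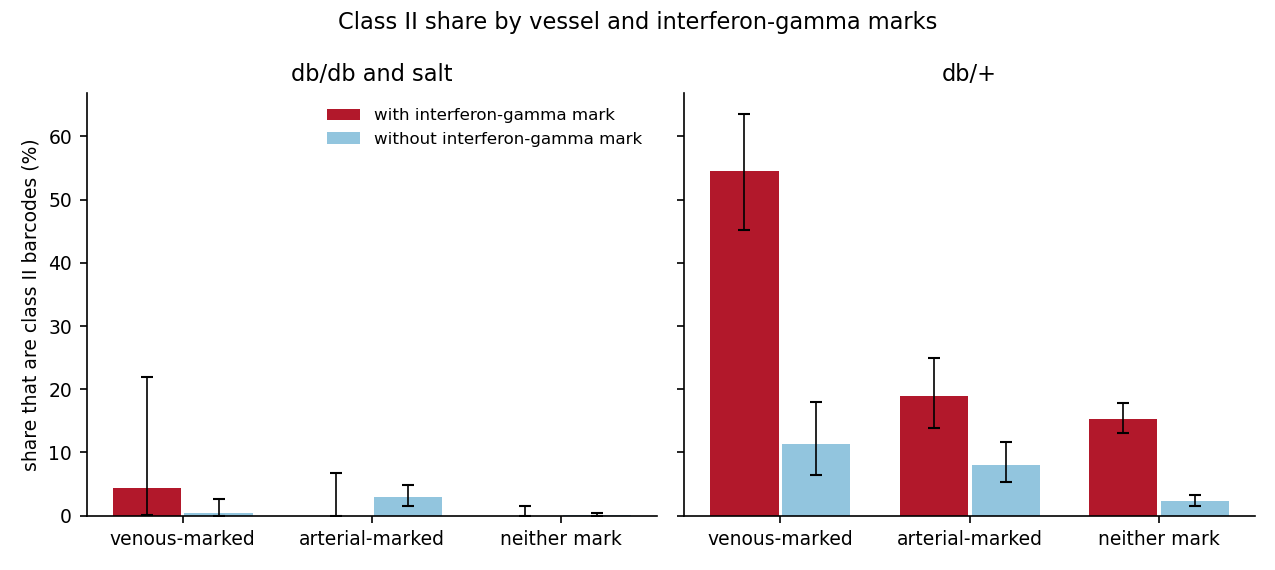
Share of endothelial barcodes that are class II barcodes (vertical axis, %) among those with a venous mark, an arterial mark or neither (horizontal axis), with and without the interferon-gamma mark. Bars are shares and lines exact 95% intervals. Marks were set at 2000 UMIs and class II barcodes were called at full depth. In db/+ the share was 54.5% in venous-marked barcodes with the interferon-gamma mark and 2.25% in barcodes with no mark, and in db/db and salt none exceeded 4.35%.

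Class II barcodes were also set against endothelial barcodes with interferon-gamma genes alone. In db/+, 1245 endothelial barcodes had UMIs of at least 3 of the 5 interferon-gamma genes above and no class II UMI, with a median depth of 8120 UMIs, close to 8979 in class II barcodes. Against these, 90 of 8317 genes (1.08%) were at least 2-fold higher in class II barcodes and 16 (0.192%) at least 2-fold lower. H2-DMb1 was at 72.6 against 0.23, H2-DMa at 66.6 against 1.10 and Ciita at 21.4 against 0.78 CPM, so these 3 were as far apart as in the comparison with all other endothelial barcodes. The median of the interferon-gamma list was 0.65, with 1 of 23 genes 2-fold higher. The venous markers had a median of 1.37 and the arterial markers of 1.20, with 5 of 9 at least 2-fold higher, and Vwf was at 232 against 37.2 CPM. The capillary markers had a median of -0.51 and the angiogenic markers of -0.92. Ifngr1 was at 316 against 309 CPM. The 1245 barcodes were selected on interferon-gamma genes and the class II barcodes were not, so the median of that list is bound to the choice.

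The class II barcodes of db/db and salt were arterial-marked more often than those of db/+, while the venous markers were higher as a list in both libraries. At 2000 UMIs 15 of 19 were arterial-marked (78.9%, 54.4 to 93.9), against 555 of 2544 other endothelial barcodes (21.8%, 20.2 to 23.5), and 3 of 19 were venous-marked (15.8%, 3.38 to 39.6) against 10.5%. The arterial markers had a median log2 ratio of 2.16, with 7 of 10 at least 2-fold higher. The venous markers had a median of 1.87 (bounds of 1.42 and 2.30), with 3 of 5 measured genes at least 2-fold higher, against a median of 1.26 in db/+. Vwf was found in 42.1% (20.3 to 66.5) of class II and 7.47% of other endothelial barcodes at 2000 UMIs. In this comparison 370 of 8367 genes (4.42%) were at least 2-fold higher and 385 (4.6%) at least 2-fold lower. Gja5, a gap junction protein of arteries, was at 262 CPM (194 to 345) against 21.9 CPM, Fbln5, an elastic fibre protein, at 718 (603 to 849) against 78.5, and Gja4 at 367 against 53.5 CPM. The capillary markers had a median of -1.33, with 7 of 10 at least 2-fold lower, and Car4 was at 10.5 CPM (1.27 to 37.9) against 320 CPM. Endocardial genes summed to 466 against 60.4 CPM, and Npr3 was at 220 CPM (159 to 297) against 27.6 CPM, although 1 of 19 barcodes had UMIs of 2 or more of the 6 endocardial genes. Smooth muscle markers were higher in the same 20 barcodes, summing to 157 against 32.9 CPM, with Acta2 at 57.6 CPM (28.8 to 103) against 11.8, Tagln at 57.6 against 9.27 and Myl9 at 41.9 against 11.7 CPM, and Cnn1 without a UMI. Fibroblast markers outside the rule summed to 136 against 123 CPM and pericyte markers to 461 against 608 CPM. The part of these cells in the arterial and endocardial levels was not tested.

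Interferon-gamma genes were not higher in these 20 barcodes. The list's median was -0.29, with bounds of -1.09 and 0.59 as the medians of the genes' own bounds. Of its 14 measured genes 1 was 2-fold lower and none higher (4.6% and 4.42% of all genes were). Iigp1 was at 73.4 CPM (40.1 to 123) in class II against 130 CPM in other endothelial barcodes, and Igtp at 15.7 CPM (3.24 to 45.9) against 26.2 CPM, from 3 UMIs. The class I list had a median of 0.18 and no gene of 21 was 2-fold apart. H2-DMa and H2-DMb1 had 10 UMIs each (52.4 CPM, 25.1 to 96.4), against 0.38 CPM of H2-DMa and no UMI of H2-DMb1 among 21026166 in other endothelial barcodes, which at 3 UMIs allows 0.143 CPM. Ciita had 1 UMI (5.24 CPM, 0.13 to 29.2) against 0.14 CPM. Cyp26b1 was at 83.9 CPM (47.9 to 136) in class II against 357 CPM in other endothelial barcodes of db/db and salt, the other direction than in db/+. Between db/db and salt and db/+, its log2 ratio was -0.53 (bounds of -1.35 and 0.23) in class II barcodes, at 83.9 against 126 CPM. In other endothelial barcodes it was 3.43, at 357 against 24.1 CPM. Set directly against the class II barcodes of db/+, 408 of 8389 genes (4.86%) were at least 2-fold higher and 472 (5.63%) at least 2-fold lower. These counts come from 190809 against 3872056 UMIs. Among other endothelial barcodes, with 21026166 against 22234730 UMIs, 9 of 8328 genes (0.108%) were at least 2-fold higher and 38 (0.456%) at least 2-fold lower. The totals are unlike, so the 2 sets of counts cannot be compared, and the part of counting error in them was not tested. In that comparison of class II barcodes the interferon-gamma list had a median of -2.54, and of -2.06 with 6 genes that had no UMI in db/db and salt taken at 3 UMIs. The haemoglobin gene Hbb-bs was at 5.24 against 1260 CPM in db/db and salt and at 1373 against 1706 CPM in db/+, where the log2 ratio was -0.31 and turned to 0.11 with barcodes chosen at 2000 UMIs and to 0.21 with barcodes weighted equally.

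By bed, class II barcodes of db/db and salt were 14 of 482 arterial-marked barcodes without the interferon-gamma mark (2.90%, 1.60 to 4.83) and 0 of 53 with it, 1 of 213 and 1 of 23 venous-marked ones, and 2 of 1526 and 0 of 231 with neither bed mark. The arterial share without the interferon-gamma mark lay above the 0.663% (0.287 to 1.30) of fibroblast barcodes, and below the 8.07% of barcodes so marked in db/+. In each of these the class II rule was applied before thinning. With it applied after thinning, the fibroblast share was 0.336% (0.0917 to 0.858).

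**Figure D5:**
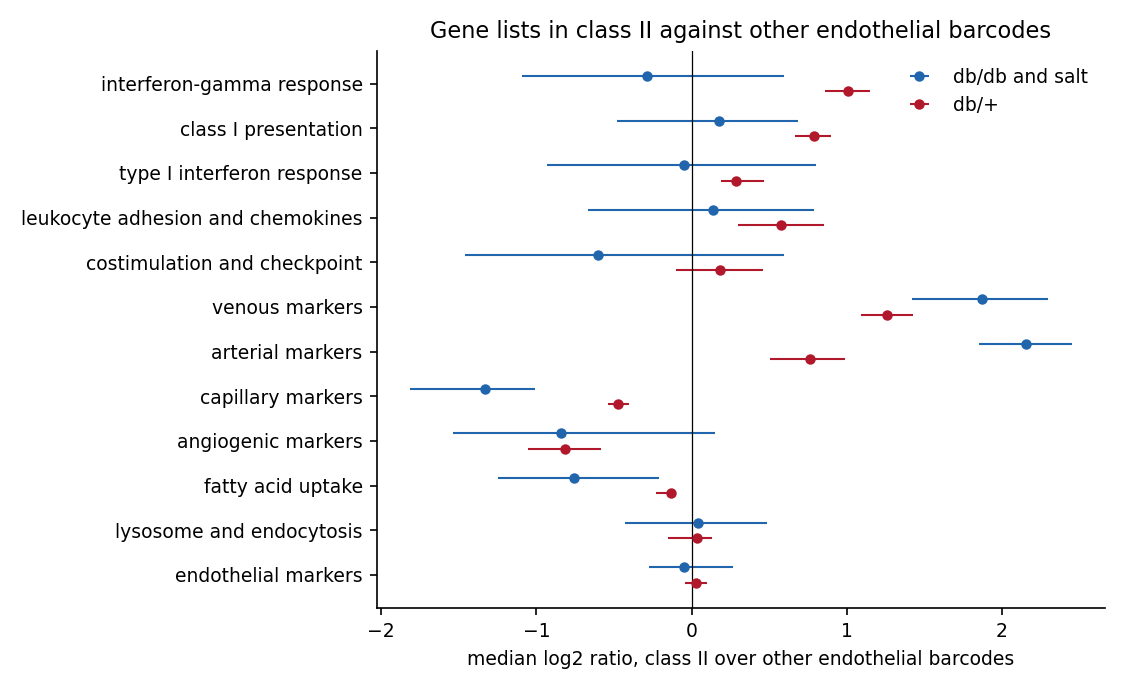
Median log2 ratio of class II over other endothelial barcodes (horizontal axis) for 12 gene lists in the db/db and salt library (blue, above) and the db/+ library (red, below); lines run between the medians of the genes' lower and upper bounds. The interferon-gamma list stood at -0.29 in db/db and salt and 1.01 in db/+, the arterial markers at 2.16 and 0.76.

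Other functions of endothelium differed less in db/+, where 0.937% of all genes were at least 2-fold higher and 0.192% at least 2-fold lower. Of 9 genes of fatty acid uptake none was 2-fold apart and the median was -0.14, with the fatty acid carrier Cd36 at 2971 against 3728, the lipase anchor Gpihbp1 at 1252 against 1862 and Pparg at 60.2 against 96.9 CPM. In db/db and salt that list had a median of -0.76, with Lpl at 168 CPM (114 to 237) against 1251 CPM. Of 9 junction genes Gja1 was 2-fold lower and Plvap 2-fold higher in db/+, Jam3 was at 63.0 against 105 CPM, and the median was -0.21. Among genes of vascular tone Ptgs1, a prostaglandin synthase, was at 94.0 against 36.4 CPM, Ace, which makes angiotensin II, at 66.9 against 28.8, and Nos3, the endothelial nitric oxide synthase, at 150 against 139 CPM. Of 13 lysosomal and endocytic genes 1, the protease Ctsh, was 2-fold higher (43.9 against 10.9 CPM) and the median was 0.03. Of 12 genes that respond to tissue dissociation Atf3 was 2-fold higher (59.1 against 22.3 CPM) and the median was 0.07.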

How the data were processed

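Hearts of both groups were dissociated and their non-muscle cells sequenced as 2 libraries, 1 per group, with the 10x Genomics 3' kit. The deposited matrices hold raw UMI counts per gene and barcode, written by Cell Ranger 6.0.2 per the file headers; per the submitters' processing notes Cell Ranger, Seurat and the GRCm38 (mm10) genome were used, with no role stated for Seurat. The class II barcodes and the gene lists were chosen with earlier results of these data known.

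UMIs were summed over the barcodes of a set and given as CPM (counts per 1000000) of that set, 190809 UMIs for class II barcodes of db/db and salt and 3872056 for those of db/+. A gene is measured at a mean of at least 10 CPM over both sets, outside the genes of the rule and 71 entries whose symbol repeats. A list median needs 5 measured genes. Single genes of the db/db and salt barcodes rest on few UMIs. The named genes are the 10 highest and 10 lowest log2 ratios in db/+ among genes with at least 50 CPM, 30 UMIs and a UMI in 5% of barcodes of the higher set, leaving out haemoglobin, mitochondrial, Rik, Gm-numbered and ribosomal protein genes, then up to 4 genes per list with the largest ratio, and genes given as absent; Cxcl10, Isg15, Ifngr1, B2m, Nlrc5, Nos3, Lpl, Ctsl, Ctss, Rfxap, Rfx5, Nfyb, Creb1, H2-DMb2, H2-Ob, Dll4, Efnb2, Selp and Sele were named after their values were seen. Cxcl11, Ifi30 and Mx2 were not found under those symbols. Results of 2 listed genes are not reported here.

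Doublets were kept. Scrublet (scanpy 1.11.5) marked 50 of 4144 barcodes of db/db and salt (1.21%) and 64 of 4948 of db/+ (1.29%), and leaving them out was an alternative. Thinning drew 2000 UMIs per barcode without replacement, and marks, shares and levels described as at 2000 UMIs come from it. Alternatives were other thresholds, pseudocounts, scalings (edgeR 4.0.16 for TMM) and comparison sets. The ratios and intervals were tested on simulated data. Python 3.11.15, numpy 2.4.6, scipy 1.17.1 and R 4.3.3 were used.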

Additional observations from a re-analysis of the deposited data

Results flagged for a closer look

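Median log2 ratios of costimulatory, interferon-gamma and proliferation genes had opposite signs in the libraries, and the difference between libraries was not tested. The median log2 ratio of class II over other endothelial barcodes was -0.60 (bounds of -1.46 and 0.59) in db/db and salt and 0.18 (-0.098 and 0.46) in db/+ for costimulation and checkpoint genes. It was -0.29 (-1.09 and 0.59) and 1.01 (0.86 and 1.15) for interferon-gamma genes, so the bounds span 0 for the costimulation list in both libraries and for the interferon-gamma list in db/db and salt. For proliferation genes it was -2.09 and 0.51, the second -0.05 with barcodes chosen at 2000 UMIs. In db/db and salt Mki67, Top2a, Cenpf and Ube2c had no UMI in the 20 class II barcodes, and with such genes taken at 3 UMIs (15.7 CPM) the median was -0.86; the costimulation median was -0.52 with Pvr taken so.

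A class II signal was also seen in barcodes outside the comparisons, those that passed the endothelial gate but had at least 3 UMIs of the smooth muscle gene Myh11. UMIs of at least 2 class II genes were found in 10 of 92 of them in db/db and salt (10.9%, 5.34 to 19.1) and in 55 of 116 in db/+ (47.4%, 38.1 to 56.9), at a median depth of 15736 and 14703 UMIs. Barcodes with as much Myh11 outside the endothelial gate gave 0 of 36 and 4 of 32 (12.5%, 3.51 to 29.0). Of the barcodes left out for Ptprc, 2 of 9 in db/db and salt and 6 of 10 in db/+ met the class II rule.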

How the results depend on the processing

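No paired analysis was possible because each group is 1 library. The class II share moved to 0.403% in db/db and salt and 8.0% in db/+ with at least 3 of the 4 class II genes required, to 0.429% and 7.07% with barcodes thinned to 2000 UMIs first, and to 11.7% in db/+ with any number of Myh11 UMIs allowed; the other filters left it within its interval. The count of genes at least 2-fold higher in class II barcodes of db/+ was 169 with thinning, 139 with a pseudocount of 1 CPM, 17 with 50 CPM and 44 at a mean of at least 50 CPM, against 78. The count of genes 2-fold lower was 25 with 3 class II genes, 102 with thinning, 38 and 3 with a pseudocount of 1 and 50 CPM and 91 among venous-marked barcodes, against 16. Dropping the Myh11 limit and comparing venous-marked barcodes only were chosen after seeing the data. Some values whose own bounds excluded 0 changed sign. The proliferation median was -0.051 with thinning and -0.026 among venous-marked barcodes, and the pericyte median 0.57 without the Myh11 limit, where Gsn was at 0.31, Rgs5 at 1.19 and Vtn at 0.11. Among venous-marked barcodes Ifi27l2a was at -0.49, Serping1 -0.25, Cd63 -0.48, Gja4 -0.49, Cpe -0.16, Cenpf -0.25, Mki67 -0.18 and Npr3 -1.01. Npr3 was at -0.49 with 3 class II genes and -0.69 with thinning, Mki67 at -0.33 with thinning, and Hbb-bs at 0.11 with thinning and 0.21 with barcodes weighted equally. For these the cause was not tested. A further 27 values, of 6 lists and 6 genes, changed sign where the bounds of the reported value span 0. Among them the early response median was below 0 with thinning and -0.10 among venous-marked barcodes, and the vascular tone median -0.10 among venous-marked barcodes. Acta2 was at 2.28 and Myl9 at 1.87 without the Myh11 limit, and Tagln at -1.65 and Prox1 at -0.75 among venous-marked barcodes. The other values for lists and single genes kept their sign, 1642 moving within their bounds and 323 beyond them. The interferon-gamma median ran from 0.72 to 1.36, the class I median from 0.68 to 1.07, the venous median from 0.38 to 1.45, the arterial median from 0.0029 to 0.94 and the adhesion median from 0.22 to 0.93 over the alternatives. The 20 barcodes of db/db and salt hold few UMIs in all, and 1 UMI among them is 5.24 CPM.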

Other observations

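Summed markers of fibroblasts, cardiomyocytes, smooth muscle and pericytes were lower in class II than in other endothelial barcodes of db/+. The rule limited fibroblast and Myh11 UMIs, so the levels of fibroblast and smooth muscle genes are partly bound to that choice. At 2000 UMIs, at least 2 of 4 smooth muscle genes were found in 5 of 325 class II barcodes (1.54%, 0.501 to 3.55) and 13 of 2646 others (0.491%, 0.262 to 0.839). Fibroblast genes outside the rule summed to 54.8 CPM in class II and 67.0 CPM in other endothelial barcodes, cardiomyocyte genes to 43.1 against 97.7, smooth muscle genes to 34.6 against 40.6 and pericyte genes to 505 against 772 CPM. Lymphatic markers summed to 116 against 152 CPM, and at 2000 UMIs 2 of 325 class II barcodes (0.615%) and 23 of 2646 others (0.869%) had UMIs of at least 2 of them. Proliferation genes were found in some class II barcodes, with UMIs of at least 3 of 8 proliferation genes in 15 of 325 (4.62%, 2.61 to 7.498) and in 76 of 2646 others (2.87%, 2.27 to 3.58). Endocardial marks were rare, on 5 of 325 (1.54%) and 14 of 2646 (0.529%). Of the 19 endocardial-marked endothelial barcodes of db/+ 5 were class II barcodes (26.3%, 9.15 to 51.2). That interval includes the 10.9% of all endothelial barcodes, 325 of 2971.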
